A study of Mus musculus with 65 samples.

Results

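The 589 genomic sites described here are MEF2 binding sites of mouse cerebellum that carried a MEF2D peak, no MEF2A peak and a middle level of the histone mark H3K27ac in Control mice. They were taken from a table of 1419 sites as those without 1 bp of overlap with a MEF2A peak whose mean over the 9 Control libraries was at least 2 and below 6 CPM (reads in the site scaled to the total of the library). Of the 1221 sites without a MEF2A peak, 307 lay below that range ("low") and 325 above it ("high"), and the other 198 sites of the table overlapped a MEF2A peak. All 589 overlapped one of the 1388 deposited MEF2D peaks, and 1 had a MEF2A peak within 500 bp of its centre. The 5 sites just inside the lower threshold had 2.001 to 2.0135 CPM and the 5 just outside it 1.9483 to 1.999 CPM, and the 5 just inside the upper threshold had 5.965 to 5.9883 CPM and the 5 just outside it 6.0228 to 6.0453 CPM. The Control level was thus used to choose the sites and is given only as a description.

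The series compared conditional knockouts (cKO) of the genes for MEF2A, MEF2D or both (MEF2AD) with Control mice of the same line, all C57BL/6 females where H3K27ac or RNA was measured. For H3K27ac chromatin immunoprecipitation with an Abcam antibody (ab4729), MEF2A cKO, MEF2D cKO, MEF2AD cKO and the Control of each line had 3 libraries each, and 1 cKO and 1 Control input were sequenced. RNA from postnatal day 22 cerebellum had 4 libraries in each of the same 6 groups, whose titles carry the word Rotarod. The promoter that drives Cre, the deleted exons, the age of the H3K27ac tissue and whether each library is 1 animal are not stated in the labels, so the p-values measure the spread between libraries. No library is shared between the lines.

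Acetylation of lysine 27 on histone H3 marks active promoters and enhancers, and its loss from a site usually accompanies lower activity of that element. MEF2 proteins are transcription factors that bind an A/T-rich DNA element and recruit either acetyltransferases or class IIa histone deacetylases, depending on calcium signals in neurons. MEF2A and MEF2D are both made in cerebellar granule neurons, the small glutamatergic cells that make up most of the cells of this tissue.

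Most of the 589 sites lay away from gene starts. Of 559 sites on chromosomes with annotated starts used here, 62 (11.1%) lay within 1000 bp of one, against 6.14% of the low sites, 14.4% of the high sites and 15.5% of the MEF2A-bound sites. The median distance to a start was 25954 bp, 176 sites (31.5%) were more than 50000 bp away, and 410 of the 589 (69.6%) lay inside a gene. Their median width was 299 bp, with a range of 201 to 628 bp.

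Sequence could be read only where a site touched a promoter window of RefSeq (GRCm38.p6), which runs from 250 bases before to 50 after a gene start. The 37 sites that did so touched 46 windows, and 17 of these windows (37.0%) held the MEF2 consensus element on either strand, against 3.19% of all 32851 windows. Its core, TA followed by 4 letters A or T and then TA, was in 41.3% of the windows against 9.32% of all, and overlaps the consensus. The AP-1 word TGANTCA was in 8.70% against 7.81%, the cAMP response element TGACGTCA in 0 of the 46 windows against 1.79%, the E-box CANNTG in 65.2% against 72.3% (its forms CAGCTG in 13.0% against 16.3% and CATATG in 2.17% against 3.91%), and the NFI element, by its name, in 0 of the 46 against 0.0365%. All words were searched on both strands. The MEF2 consensus was also in 2 of 15 windows of low sites, 10 of 28 of high sites and 13 of 24 of MEF2A-bound sites.

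The 250 bases before 4 of these starts are shown because H3K27ac at their sites fell furthest in MEF2AD cKO among the 37. Capitals mark the MEF2 consensus, its core and AP-1 words, each line reads 5′ to 3′ on the gene's strand, and the windows are Gm40863 at chr13:30235224-30235473 (minus strand), Gm31552 at chr3:20822362-20822611 (minus), Gm39671 at chr11:29808615-29808864 (plus) and Hdac9 at chr12:34528890-34529139 (minus).
Gm40863: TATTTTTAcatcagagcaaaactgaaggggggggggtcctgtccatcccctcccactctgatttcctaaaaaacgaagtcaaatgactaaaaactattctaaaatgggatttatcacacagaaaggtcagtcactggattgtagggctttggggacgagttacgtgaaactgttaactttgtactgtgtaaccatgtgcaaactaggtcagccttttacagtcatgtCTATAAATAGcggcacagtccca
Gm31552: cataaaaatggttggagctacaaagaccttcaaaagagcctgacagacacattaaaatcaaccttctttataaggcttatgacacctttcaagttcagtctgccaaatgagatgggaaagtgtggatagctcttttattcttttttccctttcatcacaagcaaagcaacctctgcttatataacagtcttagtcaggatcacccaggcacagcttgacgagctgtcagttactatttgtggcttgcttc
Gm39671: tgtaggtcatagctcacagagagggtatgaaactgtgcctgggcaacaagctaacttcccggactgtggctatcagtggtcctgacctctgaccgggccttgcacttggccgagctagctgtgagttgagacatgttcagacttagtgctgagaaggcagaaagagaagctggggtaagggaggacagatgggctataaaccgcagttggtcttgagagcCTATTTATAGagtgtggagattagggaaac
Hdac9: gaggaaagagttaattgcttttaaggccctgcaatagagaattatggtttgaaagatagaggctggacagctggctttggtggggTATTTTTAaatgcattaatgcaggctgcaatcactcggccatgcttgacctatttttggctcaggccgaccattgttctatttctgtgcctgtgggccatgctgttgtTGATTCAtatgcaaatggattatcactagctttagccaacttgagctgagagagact
Gm40863 and Gm39671 held a MEF2 consensus inside the site, Hdac9 held a core and an AP-1 word but no consensus, and Gm31552 held none of these words.

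The site at Gm40863, which also lies in the gene of the acyltransferase Mboat1, had 0.209, 0.288 and 0.163 CPM in MEF2AD cKO and 1.68, 1.5 and 1.38 CPM in MEF2AD Control libraries, with a log2 fold change of -2.17 ± 0.31 (SE; edgeR adjusted p = 2.61e-08). At the site of Gm31552, a gene without a known role, MEF2AD cKO libraries had 1.22, 1.11 and 0.490 CPM and MEF2AD Control libraries 4.66, 4.64 and 3.91 CPM (log2 fold change -1.61 ± 0.19, edgeR adjusted p = 1.04e-10). Both sites lost signal in every MEF2AD cKO library relative to every Control library. Among the 37 promoter sites, 13 had a MEF2 consensus in the window. Scaled by TMM (edgeR's trimmed mean over the sites), 2 of the 13 fell and 4 rose in MEF2AD cKO, and of the 24 without a consensus 5 fell and 11 rose, where 32.6% of all sites tested fell and 29.5% rose. Scaled by library totals, 7 of the 13 fell and 10 of the 24, and 0 rose in either set, where 54.9% of all sites fell and 2.04% rose. The median log2 fold changes were 0.01 and 0.33 by TMM and -0.48 and -0.16 by library totals, so the direction at these promoter sites turns on the scaling.

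Cerebellar tissue was checked in Control RNA before the comparisons. The 24 listed genes of mature granule neurons had a median of 575 CPM, the 16 of Purkinje cells 241 CPM, the 12 of astrocytes and Bergmann glia 280 CPM, the 12 of oligodendrocytes 127 CPM, the 11 of microglia 10.7 CPM and the 10 of endothelial cells 22.7 CPM. In bulk tissue, fewer cells of a type and less signal per cell cannot be told apart. Mef2a RNA was 76.9 to 97.8 CPM in MEF2A cKO against 207 to 232 CPM in MEF2A Control libraries, and 88.4 to 99.2 CPM in MEF2AD cKO against 182 to 193 CPM in MEF2AD Control libraries. Mef2d RNA was 359.5 to 387 CPM in MEF2D cKO libraries against 306 to 357 CPM in MEF2D Control libraries (limma adjusted p = 0.165), and it was 361 to 388 CPM in MEF2AD cKO against 276 to 316 CPM in MEF2AD Control libraries (adjusted p = 0.0170). Whole-gene Mef2d RNA therefore gave no check of the MEF2D knockout label. H3K27ac libraries held 8694657 to 48557960 reads, with a median of 24 to 107 reads per site, and MEF2AD cKO library 3 (median 24) and MEF2AD Control library 3 (median 32) were the shallowest. RNA libraries held 9178139 to 23160475 reads.

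Summed over the 589 sites, H3K27ac was lower in MEF2D cKO and lower still in MEF2AD cKO, while MEF2A cKO lay close to its Control. MEF2A cKO libraries had 2176.14, 2192.32 and 2263.19 CPM in all sites together, against 2314.87, 2254.71 and 2325.52 CPM in MEF2A Control libraries. MEF2D cKO libraries had 1557.6, 1689.42 and 1682.13 CPM, against 2158.05, 2255.12 and 2296.87 CPM in MEF2D Control libraries. MEF2AD cKO libraries had 1428.8, 1439.6 and 1336.71 CPM, against 2145.46, 2050 and 2163.05 CPM in MEF2AD Control libraries. All cKO libraries of the MEF2D and MEF2AD lines lay below all 9 Control libraries, and in the MEF2A line the highest cKO library overlapped the lowest Control library. The input libraries had 134.415 CPM (cKO) and 138.233 CPM (Control), so that the Control libraries stood 16.3-fold above input on average.

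**Figure D1:**
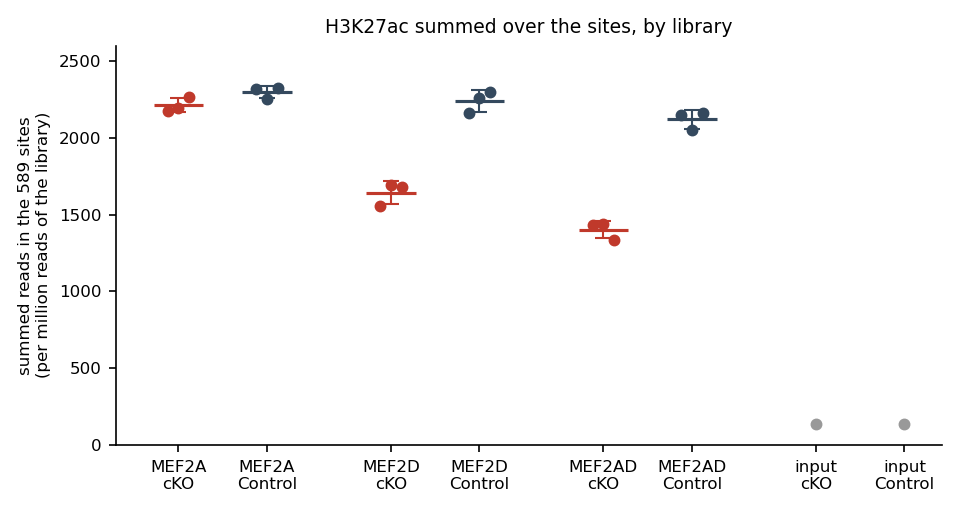
H3K27ac summed over the 589 sites in each library, in CPM, with points for libraries, bars for the mean and SD of 3 libraries, and grey points for the inputs. The MEF2D cKO points (1557.6 to 1689.42) and MEF2AD cKO points (1336.71 to 1439.6) lie below every Control point.

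As a change of the mean, the sum differed by -3.82% in MEF2A cKO, -26.5% in MEF2D cKO and -33.9% in MEF2AD cKO. The low sites of the same class changed by 5.62%, -33.5% and -46.0% in these lines, the high sites by -7.92%, -17.7% and -22.4%, and the MEF2A-bound sites by -7.21%, -9.96% and -16.5%. The middle sites thus lay between the low and the high sites in the MEF2D and MEF2AD lines.

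How many sites are called higher or lower turns on the scaling. With TMM, which sets the middle of all MEF2 sites to no change, the median log2 fold change over all 1371 sites tested was -0.01 in each line, whereas with library totals it was -0.08 in MEF2A, -0.36 in MEF2D and -0.51 in MEF2AD. Counts by both scalings are therefore given together, TMM first, and all 589 sites passed the filter on low counts. A site was called at an adjusted p below 0.05 over all sites (edgeR quasi-likelihood test with Benjamini-Hochberg adjustment).

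In MEF2A cKO, no site of the 589 was called by either scaling. Across all sites tested 0% were called lower and 0.0729% higher by TMM, and 0% and 0% by library totals. At an unadjusted p below 0.05, 55 of the 589 passed by TMM (25 lower and 30 higher), against 8.1% of all sites. By library totals 55 also passed (39 lower and 16 higher), against 10.1% of all sites, and DESeq2 also called 0 at the adjusted threshold. The median log2 fold change was 0.01 by TMM and -0.06 by library totals. Per library total, all 3 MEF2A cKO libraries lay below all 3 Controls at 80 sites and above them at 28, against 13.6% and 4.44% of all 1419 sites.

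In MEF2D cKO, 149 of the 589 sites (25.3%) fell and 53 rose by TMM, where 20.3% of all sites tested fell and 14.2% rose. By library totals 292 sites (49.6%) fell and 3 rose, against 41.2% and 0.584% of all sites. All 149 falls were also called by library totals, but only 3 of the 53 rises were. Library totals moved the median of all sites tested from -0.01 to -0.36. The agreement of the falls was thus largely set in advance and is no support for them. The median log2 fold change of the 589 was -0.08 by TMM and -0.43 by library totals. All 3 MEF2D cKO libraries lay below all 3 Controls at 330 of the 589 sites and above them at 9, against 47.9% and 2.04% of all sites. With the sites chosen from the Controls of the other lines only, 147 fell and 52 rose by TMM. The rises by TMM were 32 without MEF2D cKO library 3 and 35 without MEF2D Control library 2.

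In MEF2AD cKO, 226 sites (38.4%) fell and 144 rose by TMM, against 32.6% and 29.5% of all sites tested. Library totals gave 360 falls (61.1%) and 10 rises, against 54.9% and 2.04% of all sites. The 226 falls were again all called by library totals, an agreement that the shift between the scalings largely set in advance. Of the 144 rises 10 were called by library totals, and 59 of the 144 had a negative log2 fold change by library totals. The median was -0.13 by TMM and -0.61 by library totals. MEF2AD cKO libraries lay below all Controls of the line at 382 sites and above them at 20, against 56.7% and 4.09% of all sites. With the sites chosen from the Controls of the other lines only, 221 fell and 141 rose by TMM. The 10 rises by library totals were 5 without MEF2AD cKO library 2, 6 without MEF2AD cKO library 3 and 3 without MEF2AD Control library 2.

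**Figure D2:**
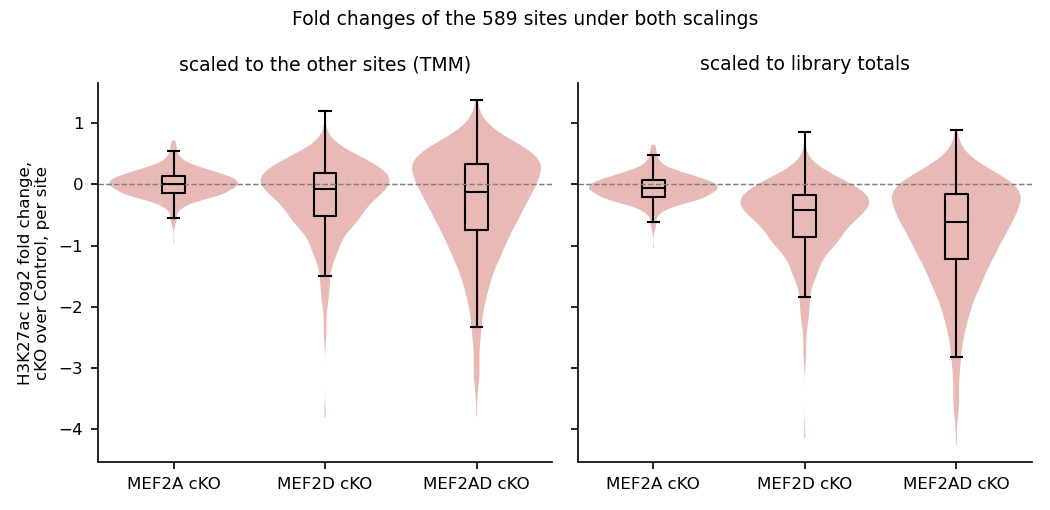
Log2 fold change of H3K27ac (cKO over Control) at the 589 sites in each line by TMM (left) and by library totals (right), with shaded outlines for the spread of sites, boxes for the quartiles, a line for the median and whiskers to the most extreme site within 1.5 box heights. The medians by TMM are 0.01, -0.08 and -0.13 in MEF2A, MEF2D and MEF2AD cKO, and those by library totals are -0.06, -0.43 and -0.61.

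The size of the loss varied widely among sites. Per library total, the cKO mean was below 0.5 of the Control mean at 1 site in MEF2A, at 107 sites (18.2%) in MEF2D and at 215 sites (36.5%) in MEF2AD, against 16.1% and 32.3% of all sites in the MEF2D and MEF2AD lines. It was above the Control mean at 231 sites (39.2%) in MEF2A, 67 (11.4%) in MEF2D and 96 (16.3%) in MEF2AD. Of all sites, 35.2%, 15.9% and 17.9% were above it in these lines. In the authors' deposited table of site changes, the median log2 fold change over the 589 was -0.04 in MEF2A, -0.41 in MEF2D and -0.62 in MEF2AD, with 513 sites below 0 in MEF2D and 491 in MEF2AD. Over that whole table the medians were -0.05, -0.38 and -0.57, close to those of the 589.

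Among the deepest losses were sites inside genes of known function. The site in Tcf12, which encodes a basic helix-loop-helix transcription factor, lies at chr9:71858021-71858350. It had 0.197, 0.111 and 0.0427 CPM in MEF2D cKO libraries against 1.96, 1.81 and 2.33 CPM in MEF2D Control libraries, and 0.0698, 0.124 and 0 CPM in MEF2AD cKO against 1.89, 1.5 and 2.42 CPM in MEF2AD Control libraries. Its log2 fold changes were -3.74 ± 0.43 and -3.80 ± 0.40 (SE; edgeR adjusted p = 3.84e-10 and 9.08e-12 by TMM). No cKO library of either line came near a Control library, and the 2 inputs had 0.366 and 0 CPM there. In MEF2A cKO the same site had 1.59, 1.79 and 2 CPM against 1.58, 1.97 and 2.75 CPM in MEF2A Control libraries, with overlapping groups.

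The site in 2810004N23Rik (chr8:124860200-124860484) had 0.0984, 0.332 and 0.171 CPM in MEF2D cKO libraries against 3.01, 3.62 and 4.04 CPM in MEF2D Control libraries, the deepest fall of that line (log2 fold change -3.80 ± 0.33, edgeR adjusted p = 1.06e-13). In MEF2AD cKO it had 0.384, 0.185 and 0.163 CPM against 2.88, 3.57 and 2.76 CPM (log2 fold change -3.17 ± 0.28). All 6 cKO values lay near the inputs, which had 0.183 and 0.204 CPM. A site in Mfn2, which encodes a mitochondrial fusion protein, fell in both lines, with changes per library total of -86.4% in MEF2D cKO and -85.3% in MEF2AD cKO. A site in Ap2b1, a subunit of the clathrin adaptor, changed by -86.3% and -89.8% in the same lines, and a site between genes nearest to Gm26843 by -83.6% and -93.9%.

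The site in Inpp4a, which encodes a phosphatase of inositol lipids, lies at chr1:37386740-37387036 and had 0.349, 0.330 and 0.327 CPM in MEF2AD cKO against 3.98, 3.94 and 5.64 CPM in MEF2AD Control libraries (log2 fold change -3.16 ± 0.26, edgeR adjusted p = 6.72e-16). In MEF2D cKO it had 0.837, 0.997 and 0.982 CPM against 4.12, 5.71 and 3.22 CPM in MEF2D Control libraries (log2 fold change -1.88 ± 0.23, edgeR adjusted p = 2.35e-09). It was low in all cKO libraries of both lines. The site nearest to Gm10248 and that in Cdh16, which encodes a cadherin, fell in MEF2AD cKO with changes of -92.5% and -92.6%.

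Few sites rose by both scalings. The site in Slit3, which encodes a secreted axon guidance protein, lies at chr11:35231841-35232087. It had 2.81, 4.15 and 3.97 CPM in MEF2D cKO libraries against 2.03, 2.03 and 1.99 CPM in MEF2D Control libraries, and 3.66, 3.93 and 4.99 CPM in MEF2AD cKO against 2.47, 2.54 and 1.96 CPM in MEF2AD Control libraries. Its log2 fold changes were 1.20 ± 0.19 and 1.23 ± 0.16 by TMM (edgeR adjusted p = 1.67e-06 and 6.95e-09) and 0.85 and 0.74 by library totals (edgeR adjusted p = 0.000347 and 0.000148). Every cKO library of both lines was above every Control library of its line. In MEF2A cKO the site had 3.13, 3.86 and 3.17 CPM against 2.26, 2.47 and 2.07 CPM in MEF2A Control libraries, also without overlap, but it was not called (edgeR adjusted p = 0.142).

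A site nearest to Gm5485 also rose by both scalings in MEF2D cKO, and its log2 fold change was 0.79 ± 0.17 by TMM and 0.44 by library totals. Among the 10 in MEF2AD cKO were the sites in Slit3, Pcdh9, Epb41l1, 6530403H02Rik, Rgs3 and Usp3 and those nearest to Fam72a, Sowahb and Eif1ax, of which Pcdh9, Rgs3, Usp3, Sowahb and Eif1ax are named here after their values were seen. Sites in Shld1 and near Gm42327 rose in MEF2D cKO by TMM only, with log2 fold changes of 0.68 at both.

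**Figure D3:**
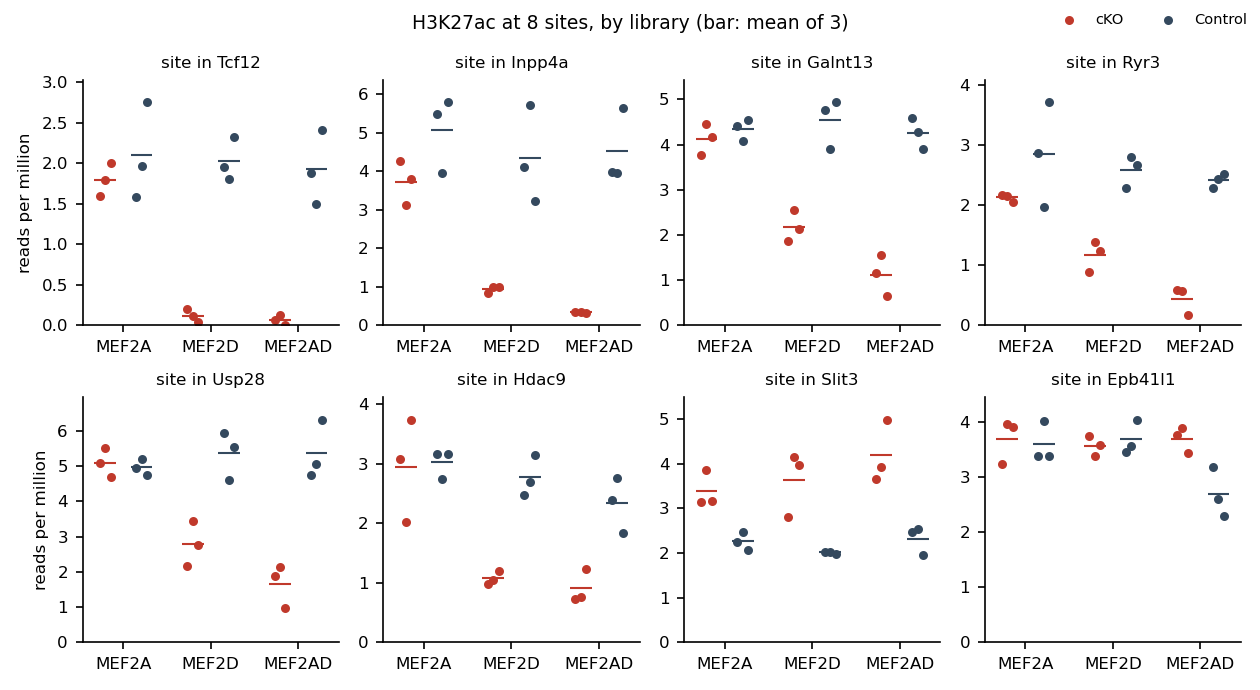
H3K27ac at 8 sites in every library, in CPM, with cKO (red) left of Control (dark) in each line and bars for the mean of 3 libraries. The Tcf12, Inpp4a, Galnt13, Ryr3, Usp28 and Hdac9 sites are lower in MEF2D and MEF2AD cKO, the Slit3 site is higher in both, and the Epb41l1 site is higher in MEF2AD cKO.

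The MEF2D and MEF2AD lines, which have separate Controls, called largely overlapping sites. Of the falls by TMM, 143 were shared, which is 96.0% of the 149 in MEF2D cKO and 63.3% of the 226 in MEF2AD cKO. Of the rises, 47 were shared, 88.7% of the 53 and 32.6% of the 144. By library totals the lines shared 276 falls, 94.5% of the 292 and 76.7% of the 360. Across the 589 sites the TMM log2 fold changes of both lines had a Pearson correlation of 0.895 and a Spearman correlation of 0.871, given as a description because sites of 1 library share its depth. The Pearson correlation was 0.934 at the high sites, 0.848 at the low sites and 0.555 at the MEF2A-bound sites, so it is not particular to the 589.

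**Figure D4:**
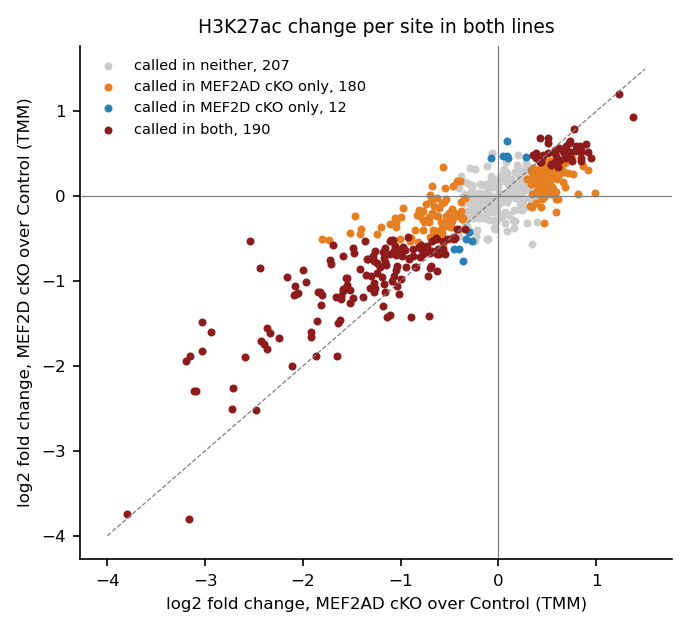
Log2 fold change of H3K27ac by TMM in MEF2AD cKO (horizontal) and MEF2D cKO (vertical) at the 589 sites, with the line of equal change dashed. Of the 589, 190 were called in both lines, 180 in MEF2AD cKO only, 12 in MEF2D cKO only and 207 in neither.

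The loss differed with Control level and position. By TMM, 31.5% of the 178 sites at 2 to 3 CPM fell in MEF2D cKO and 46.6% in MEF2AD cKO, against 15.5% and 29.1% of the 103 sites at 5 to 6 CPM. By TMM, 8 and 24 of the 178 rose in these lines, and 13 and 37 of the 103. By library totals the gap in falls was smaller, with 56.7% and 64.6% of the 178 against 46.6% and 56.3% of the 103. The median by library totals in MEF2AD cKO was -0.85 at 2 to 3 CPM and -0.46 at 5 to 6 CPM. Since Control level chose the sites, these are descriptions. Of the 62 sites within 1000 bp of a start, 13 fell (21.0%) and 23 rose in MEF2AD cKO by TMM, and by library totals 28 fell (45.2%) and 0 rose. Of the 321 sites beyond that and up to 50000 bp, 135 fell (42.1%) and 71 rose by TMM, and 205 fell (63.9%) and 8 rose by library totals. Of the 176 sites beyond 50000 bp, 68 fell and 43 rose by TMM, and 108 fell and 2 rose by library totals.

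The difference between the effects of the lines was tested directly in the same edgeR fit. The MEF2AD effect was below the MEF2A effect at 191 sites and above it at 68 by TMM (26.5% and 18.7% of all sites), and below at 283 and above at 5 by library totals (41.1% and 1.53%). The largest difference downward lay at the site nearest to Gm26843 (-3.67 ± 0.39). The MEF2D effect was below the MEF2A effect at 91 sites and above it at 14 by TMM (12.6% and 5.47%), and at 173 and 3 by library totals (23.9% and 0.365%). The 14 by TMM were 9 without MEF2D Control library 2 and 24 without MEF2AD cKO library 3. The site in Tcf12 had a MEF2D effect lower than the MEF2A effect by a log2 difference of -3.60 ± 0.52 (edgeR adjusted p = 4.91e-07). The site in Shld1 had the largest difference upward, 0.92 ± 0.20 (edgeR adjusted p = 0.000736), with 4.87, 6.37 and 5.42 CPM in MEF2D cKO libraries against 4.51, 4.45 and 4.18 CPM in MEF2D Control libraries. The site in Tyro3, a receptor tyrosine kinase gene, had a difference of 0.86 ± 0.21.

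The MEF2AD effect was below the MEF2D effect at 14 sites and above it at 2 by TMM (2.99% and 0.219% of all sites), and below at 30 and above at 0 by library totals (5.84% and 0%). The site nearest to Meltf, which encodes an iron-binding membrane protein, lies at chr16:31876367-31876691 and had 0.314, 0.597 and 0.0817 CPM in MEF2AD cKO against 3.39, 3.51 and 3.91 CPM in MEF2AD Control libraries. In MEF2D cKO it had 1.77, 2.33 and 2.09 CPM against 3.59, 3.90 and 3.84 CPM in MEF2D Control libraries, so that both groups of cKO libraries lay below their Controls and the MEF2AD libraries lay lower. The difference of the 2 effects was -2.01 ± 0.31 on the log2 scale (edgeR adjusted p = 1.6e-05). The sites nearest to Gm46124 and Gm20753 had differences of -1.55 ± 0.41 and -1.58 ± 0.44, and those nearest to Fam72a and Dguok were the 2 above, with 0.95 ± 0.27 and 0.79 ± 0.22, neither of them called by library totals.

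Against the sum of both single effects, the MEF2AD effect was below at 10 sites and above at 1 by TMM (2.04% and 0.0729% of all sites), and below at 7 and above at 0 by library totals (1.75% and 0%). The Meltf site had the largest difference, -1.97 ± 0.36 (edgeR adjusted p = 0.000511 by TMM and 0.000748 by library totals). The sites nearest to Ptchd4 (-1.50 ± 0.42) and in the splicing factor gene Rbfox2 (-1.23 ± 0.33) followed, and the site nearest to Fam72a was the one above. These counts rest on few libraries. Leaving out 1 library gave between 1 and 12 sites by TMM for the comparison with the sum. For the difference between the MEF2AD and MEF2D effects it gave between 3 and 16, the 3 without MEF2D cKO library 2.

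RNA was not used to choose the sites. The table of 15469 genes held 381 genes whose body lay within 5000 bp of a site, near 383 of the 589 sites. Their median Control level was 80.3 CPM against 20.9 CPM for all genes, and the part of this level in the counts below was not tested. In MEF2A cKO 2 of the 381 fell and 2 rose (0.525% each way, against 0.129% and 0.155% of all genes), in MEF2D cKO 41 fell (10.8%) and 10 rose (2.62%), against 2.33% and 2.59% of all genes, and in MEF2AD cKO 49 fell (12.9%) and 16 rose (4.2%), against 1.26% and 1.16% (limma-trend, adjusted p below 0.05 over all genes). The share of falls in MEF2D cKO was 10.2% near the low sites, 16.5% near the high sites and 9.09% near the MEF2A-bound sites, and in MEF2AD cKO it was 4.79%, 14.1% and 20.7%. These counts come from a fit without pairing. With the replicate number as a block, 4 genes fell and 3 rose in MEF2A cKO. The count in MEF2D cKO was 27 genes in all without MEF2D cKO library 4 and 29 without MEF2D Control library 1.

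More genes fell than rose in RNA near sites where H3K27ac fell by TMM, and near sites where it rose by TMM the median RNA change was close to 0. Fallen and risen sites are those by TMM throughout this paragraph. By library totals, 10 of the 144 risen sites in MEF2AD cKO and 3 of the 53 in MEF2D cKO were called higher. Of the 144, 59 had a negative log2 fold change by library totals. Of the 142 genes near a site that fell in MEF2AD cKO by TMM, 30 fell and 2 rose in RNA (21.1% and 1.41%). Of the 107 near a site that rose, 4 fell and 8 rose (3.74% and 7.48%). Of the 133 near sites of which none was called, 15 fell and 6 rose (11.3% and 4.51%). Over all genes, 1.26% fell and 1.16% rose in this line. In MEF2D cKO, 17 of the 100 genes near a fallen site fell and 1 rose, and of the 40 near a risen site 1 fell and 6 rose. The median RNA log2 fold change in MEF2AD cKO was -0.09 near fallen sites, with 78.9% of genes below 0, and -0.0036 near risen sites, with 54.2% below 0. In MEF2D cKO these were -0.12 with 81.0% below 0 and -0.02 with 52.5% below 0. The difference between these sets of genes was not tested. Across 376 genes with at least 1 CPM, the Pearson correlation between the log2 fold changes of H3K27ac and RNA was 0.0774 in MEF2A, 0.184 in MEF2D and 0.225 in MEF2AD, which is given as a description.

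Several genes fell in RNA beside a site that fell. Galnt13, which encodes an enzyme that starts O-linked glycosylation, had 70.8, 65.6, 74.0 and 62.7 CPM in MEF2AD cKO against 106, 132, 154 and 108 CPM in MEF2AD Control libraries (log2 fold change -0.85 ± 0.10, limma adjusted p = 2.62e-06), and 96.2, 89.2, 98.2 and 93.3 CPM in MEF2D cKO libraries against 123, 134, 144 and 174 CPM in MEF2D Control libraries (-0.59 ± 0.10). Its site at chr2:54442747-54443040 fell in both lines, with changes of -51.8% in MEF2D cKO and -73.8% in MEF2AD cKO. In both lines the RNA groups did not overlap.

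Usp28, which encodes a deubiquitinase, had 33.0, 35.2, 36.9 and 31.6 CPM in MEF2AD cKO against 65.2, 82.1, 82.0 and 67.6 CPM in MEF2AD Control libraries (log2 fold change -1.09 ± 0.07, limma adjusted p = 3.43e-10). Its site at chr9:48986838-48987221 had 1.88, 2.14 and 0.981 CPM in MEF2AD cKO against 4.76, 5.07 and 6.33 CPM in MEF2AD Control libraries. RNA and H3K27ac of Usp28 were thus both lower without overlap in MEF2AD cKO. In MEF2D cKO its RNA also fell, with a log2 fold change of -0.49 ± 0.07, and the site fell by 48.0%.

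Ryr3, which encodes a calcium release channel of the endoplasmic reticulum, had 12.8, 11.4, 19.6 and 24.3 CPM in MEF2AD cKO against 47.4, 31.0, 50.4 and 31.7 CPM in MEF2AD Control libraries (log2 fold change -1.22 ± 0.18, limma adjusted p = 6.95e-05). In MEF2D cKO it had 34.4, 33.8, 30.2 and 35.7 CPM against 38.4, 43.8, 34.5 and 44.2 CPM in MEF2D Control libraries and was not called (limma adjusted p = 0.487). Its site (chr2:112637188-112637521) fell in both lines, with changes of -54.8% in MEF2D cKO and -81.6% in MEF2AD cKO. Xk, which encodes a membrane protein of the Kell blood group complex, had 25.4 ± 1.35 CPM in MEF2AD cKO and 60.6 ± 6.63 CPM in MEF2AD Control libraries (SD, n = 4 each; limma adjusted p = 8.45e-10), and its site changed by -61.7% in MEF2AD cKO. Gsg1l, which encodes an auxiliary subunit of AMPA receptors, had 12.8 ± 3.94 CPM in MEF2AD cKO and 24.1 ± 2.62 CPM in MEF2AD Control libraries (SD, n = 4 each; limma adjusted p = 6.52e-05), and its site was lower in both lines (edgeR adjusted p = 0.0194 in MEF2D cKO and 0.0119 in MEF2AD cKO). Cemip, a hyaluronan-degrading factor, fell in RNA in both lines (-0.66 ± 0.19 in MEF2D cKO and -1.25 ± 0.19 in MEF2AD cKO), and its site changed by -53.3% in MEF2AD cKO but was not called in MEF2D cKO by either scaling.

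Hdac9, which encodes a class IIa deacetylase that binds MEF2 proteins and is the only one of 19 listed MEF2 targets near a site, had 7.80, 9.24, 7.50 and 11.2 CPM in MEF2AD cKO against 16.1, 13.5, 13.8 and 12.5 CPM in MEF2AD Control libraries (log2 fold change -0.60 ± 0.12, limma adjusted p = 0.0021). In MEF2D cKO it had 7.56, 8.55, 9.43 and 9.13 CPM against 12, 11.8, 12.9 and 13.8 CPM in MEF2D Control libraries (-0.49 ± 0.12, limma adjusted p = 0.0127). The promoter site whose sequence is printed above had 0.733, 0.762 and 1.23 CPM in MEF2AD cKO against 2.40, 2.77 and 1.84 CPM in MEF2AD Control libraries, and a second site of the gene fell by 59.6% in MEF2AD cKO. All cKO values of the MEF2D and MEF2AD lines, in RNA and at the promoter site, lay below their Controls.

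In some genes RNA and H3K27ac did not go together, or did so by 1 scaling only. The site in Rora, a nuclear receptor gene of Purkinje cells, changed by -63.8% in MEF2D cKO and -78.5% in MEF2AD cKO, while Rora RNA was 607 ± 35.4 CPM in MEF2AD cKO and 607 ± 25 CPM in MEF2AD Control libraries (SD, n = 4 each; limma adjusted p = 0.998). The site in the potassium channel gene Kcnj6 changed by -56.1% and -69.6% in the same lines, but Kcnj6 RNA rose in MEF2AD cKO, with 61.0, 53.6, 58.9 and 54.2 CPM against 36.3, 47.6, 44.1 and 46.4 CPM in MEF2AD Control libraries (log2 fold change 0.38 ± 0.10, limma adjusted p = 0.0383). Ncald, a neuronal calcium sensor gene, had 48.7, 56.0, 55.2 and 83.4 CPM in MEF2AD cKO against 128, 141, 164 and 121 CPM in MEF2AD Control libraries (limma adjusted p = 8.46e-08). Its site had 2.16, 2.33 and 2.12 CPM against 3.05, 3.67 and 2.53 CPM and was called lower by library totals (edgeR adjusted p = 0.0061) but not by TMM (edgeR adjusted p = 0.838). In MEF2D cKO Ncald RNA also fell (log2 fold change -0.97 ± 0.11, limma adjusted p = 6.09e-06). The site changed there by -39.9%, again called lower by library totals (edgeR adjusted p = 0.00109) but not by TMM (edgeR adjusted p = 0.102). RNA and H3K27ac of Ncald thus went the same way by library totals.

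Slit3 has 2 of the sites, of which the one described above rose by both scalings. The other was called higher by TMM in MEF2D and MEF2AD cKO (log2 fold changes of 0.46 ± 0.16 and 0.44 ± 0.15) but not by library totals (0.11 and -0.05, edgeR adjusted p = 0.638 and 0.81). Slit3 RNA rose, with 68.7, 72.3, 59.4 and 67.0 CPM in MEF2AD cKO against 37.9, 47.8, 41.8 and 51.2 CPM in MEF2AD Control libraries (log2 fold change 0.58 ± 0.09, limma adjusted p = 0.000372) and with a log2 fold change of 0.41 ± 0.09 in MEF2D cKO (limma adjusted p = 0.0109). The groups did not overlap in MEF2AD cKO. RNA of 6530403H02Rik, a gene without a known role, also rose, with 6.85 ± 2.65 CPM in MEF2AD cKO and 2.95 ± 0.564 CPM in MEF2AD Control libraries, and with 6.08 ± 0.711 CPM in MEF2D cKO and 2.58 ± 0.319 CPM in MEF2D Control libraries (SD, n = 4 each; limma adjusted p = 0.00144 and 0.00131). Diras2, a small GTPase gene, rose in MEF2AD cKO by a log2 fold change of 0.62 ± 0.07, while its site was called higher by TMM only (0.45 ± 0.13).

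**Figure D5:**
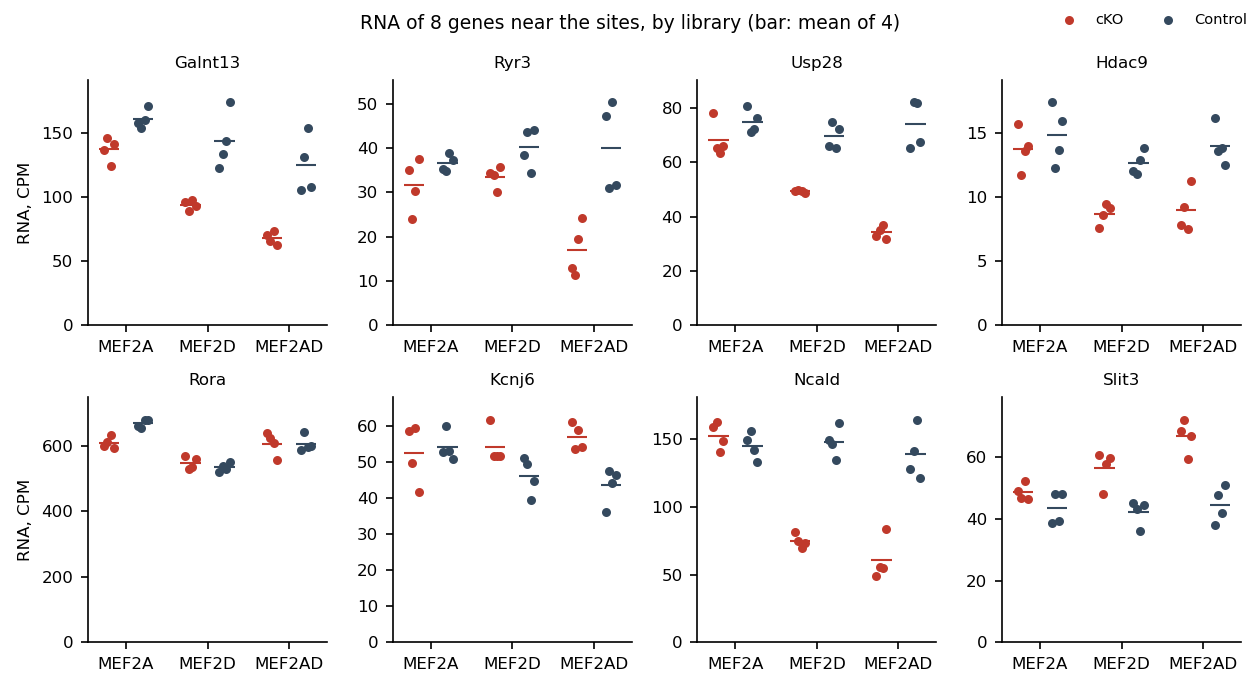
RNA in CPM of 8 genes near the sites in every library, with cKO (red) left of Control (dark) in each line and bars for the mean of 4 libraries. Galnt13, Usp28 and Hdac9 are lower in MEF2D and MEF2AD cKO, Ryr3 in MEF2AD cKO, Ncald in both, Rora overlaps its Controls in MEF2AD cKO, and Kcnj6 and Slit3 are higher in MEF2AD cKO.

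The 4 called genes near sites changed in RNA in MEF2A cKO, where H3K27ac of no site was called. Gabra6, a GABA receptor subunit of granule neurons, had 1286 ± 112 CPM in MEF2A cKO and 772 ± 70.2 CPM in MEF2A Control libraries (SD, n = 4 each; log2 fold change 0.74 ± 0.08, limma adjusted p = 1.45e-06), and it rose in MEF2D and MEF2AD cKO with log2 fold changes of 0.88 ± 0.08 and 0.37 ± 0.08. Ntng2, which encodes a synaptic adhesion molecule, rose in all 3 lines, with log2 fold changes of 0.68 ± 0.13, 0.79 ± 0.13 and 0.68 ± 0.13 in MEF2A, MEF2D and MEF2AD cKO. Nfatc2, a calcium-regulated transcription factor gene, fell in all 3 lines, with log2 fold changes of -0.42 ± 0.07, -0.61 ± 0.07 and -0.70 ± 0.07. Dnah11, which encodes a dynein chain of cilia, also fell in all 3, with -0.49 ± 0.07, -0.49 ± 0.07 and -0.51 ± 0.07. The site of Nfatc2 was called lower by library totals in MEF2D and MEF2AD cKO but not by TMM, and that of Dnah11 fell in both lines by both scalings. The Gabra6 site was called lower by library totals in MEF2AD cKO (-0.60 ± 0.15, edgeR adjusted p = 0.000593), where Gabra6 RNA rose, and was not called by TMM or in MEF2D cKO. The Ntng2 site was called higher by TMM in MEF2D and MEF2AD cKO (0.53 ± 0.16 and 0.66 ± 0.15) and by library totals in neither.

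Of the listed pathways, calcium and calmodulin signalling had 7 of 29 genes near a site, of which 3 fell and 1 rose in MEF2D cKO and 4 fell and 1 rose in MEF2AD cKO. Over all 29 genes, 5 fell and 5 rose in MEF2D cKO, and 4 fell and 2 rose in MEF2AD cKO. Vsnl1, a calcium sensor gene of that list and of granule neurons, had 239 ± 13.9 CPM in MEF2AD cKO and 342 ± 25.8 CPM in MEF2AD Control libraries (SD, n = 4 each; limma adjusted p = 0.000112). The site in Vsnl1 was not called in MEF2AD cKO by TMM (0.25, edgeR adjusted p = 0.116) or by library totals (-0.24, edgeR adjusted p = 0.151). In MEF2D cKO that site was called lower by library totals (edgeR adjusted p = 0.0112) but not by TMM (edgeR adjusted p = 0.575). Mature granule neurons had 7 of 24 genes near a site, of which 1 fell and 1 rose in each of MEF2D and MEF2AD cKO, and glutamate and GABA receptors had 4 of 31, of which only Gabra6 was called. Potassium channels had 2 of 26 genes near a site (Kcnj6 and Kcnd3), of which 1 rose in MEF2AD cKO, and synaptic vesicle genes had 5 of 29, among them Syt1, Rims1 and Cplx1, of which none was called in any line. Over all genes of these lists, 3 fell and 2 rose in MEF2D cKO among mature granule neuron genes, 1 fell and 1 rose among receptors, 5 fell and 1 rose among potassium channels and 1 fell and 4 rose among synaptic vesicle genes. In MEF2AD cKO these were 1 and 2, 0 and 1, 1 and 1, and 0 and 2.

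Activity-regulated genes had 3 of 30 measured genes near a site, and none was called in any line. Nr4a2, a nuclear receptor induced by activity, had 39.1, 24.8, 22 and 21.9 CPM in MEF2AD cKO against 59.3, 22.8, 26.6 and 58.5 CPM in MEF2AD Control libraries, with wide and overlapping groups, and Per1 and Fosb overlapped likewise. Of 16 measured genes of progenitor and immature granule cells only Ptch1, and of 16 of Purkinje cells only Rora, had a site, and neither was called in RNA. No site lay near a listed gene of interneurons, astrocytes, oligodendrocytes, microglia or endothelial cells.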

How the data were processed

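H3K27ac ChIP-seq (18 libraries and 2 inputs), RNA-seq (24 libraries) and 2 MEF2 peak lists were used from a series of 65 mouse cerebellum samples, grouped by title. The genome build mm10 and the tools MACS2, Bowtie2 2.3.4.2 and STAR 2.6 are named in the submitters' processing notes, with no role given. The sites, gene lists and tests were chosen with earlier results of these data known.

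The authors deposited H3K27ac read counts per site, without normalization, with library totals above them. The authors also deposited a site list of log2 fold changes between cKO and Control, and RNA values as log2 CPM with a pseudocount of 0.5 reads, per the values. Whole reads were recovered for 100% of the RNA values (tolerance 0.05 reads). The deposited peak lists held positions alone, and 83 further columns of per-sample values were not used.

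H3K27ac was tested with edgeR 4.0.16 in R 4.3.3 (quasi-likelihood, 6 group means, TMM over the sites, edgeR's low-count filter, Benjamini-Hochberg over 1371 sites), and also with library totals. RNA was tested with limma 3.58.1 (limma-trend on log2(CPM + 1), no filter, Benjamini-Hochberg over 15469 genes). edgeR on the recovered reads called 35, 734 and 410 of all genes in MEF2A, MEF2D and MEF2AD cKO. Errors beside RNA folds are standard errors of the limma fit. Those beside H3K27ac folds, also given as SE, are approximate. They are the size of the log2 fold change divided by the square root of the test's F statistic. Tests were checked on simulated data with as many rises as falls, set in MEF2D cKO only. Such balanced data cannot test the choice of scaling.

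The named sites were the 5 largest called falls and rises per cKO with no overlap of libraries (in MEF2A cKO none) and up to 3 each way per difference of effects, named by the nearest start or the gene they lie in. The named genes were the 6 largest falls and 4 largest rises per line and up to 3 per list, and 1 gene and 1 site that the rule names are not reported here. Genes were placed by RefSeq (GRCm38.p6), with 635 of the 15469 without a position. No samples were paired in the main fits. Deviations of same-numbered cKO and Control libraries from their group means correlated by 0.197 to 0.503 in MEF2A RNA. The range was 0.065 to 0.315 in MEF2D RNA, -0.198 to 0.253 in MEF2AD RNA and 0.0073 to 0.162 for H3K27ac. The RNA ranges overlap, so these values do not settle which libraries are pairs. Alternatives were library totals, DESeq2 1.42.0, no filter, a replicate block, fits of only the groups compared, leaving out each library, other membership rules and other distances. Library totals combined with the block or with a left-out library, and edgeR on the recovered reads, were added after seeing the data.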

Additional observations from a re-analysis of the deposited data

Results flagged for a closer look

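Direct tests of effects between lines called 259 of the 589 sites for MEF2AD minus MEF2A (edgeR, TMM). Of the 589, 32.4% were lower and 11.5% higher, against 26.5% and 18.7% of all sites tested. For MEF2D minus MEF2A, 105 were called (15.45% and 2.38%, against 12.6% and 5.47%). For MEF2AD minus MEF2D, 16 were called (2.38% and 0.340%, against 2.99% and 0.219%). For MEF2AD minus the sum of both single effects, 11 were called (1.70% and 0.170%, against 2.04% and 0.0729%). The last 2 lay near the shares of all sites. Single RNA libraries stood apart within their group of 4 in 8 of 174 groups examined, where chance gives about 1 in 20. In cKO groups these were Nr4a2 at 39.1 CPM and Nfatc2 at 24.2 CPM in MEF2AD cKO, Nfatc2 at 26.7 CPM in MEF2A cKO and Kcnj6 at 61.8 CPM in MEF2D cKO, each the highest of its group. In Control groups, Per1 at 202 CPM and Cplx1 at 653 CPM were the highest of MEF2A Control, and Gabra6 at 719 CPM in MEF2D Control and 6530403H02Rik at 2.11 CPM in MEF2AD Control were the lowest.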

How the results depend on the processing

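By library totals the medians were -0.060, -0.43 and -0.61 in MEF2A, MEF2D and MEF2AD cKO, and the sites called were 30 for MEF2AD minus MEF2D, 7 for MEF2AD minus the sum and 176 for MEF2D minus MEF2A. DESeq2 gave 8 for MEF2AD minus MEF2D, 1 for the sum and a MEF2D median of -0.067. Fits of only the groups compared gave 5 sites in MEF2A, 9 for MEF2AD minus MEF2D, a MEF2D median of -0.070 and 2, 82 and 42 genes in RNA. No such fit was made for the sum, which needs all groups. The narrower band of 2.5 to 5 CPM gave 10 for MEF2AD minus MEF2D, 7 for the sum and a MEF2D median of -0.071, and membership by all 18 libraries gave medians of -0.057 in MEF2D and -0.084 in MEF2AD. A window of 2500 bp held 15% of the sites, and 50000 bp around the sites gave 78 called genes in MEF2D cKO. With the replicate block, 2 sites were called in MEF2A cKO, 13 for the sum by library totals, 7 genes in MEF2A RNA and 91 in MEF2D RNA. Whether the replicate numbers pair the libraries is not settled. The cause of these shifts was not tested.

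Leaving out 1 library gave 0 to 6 sites in MEF2A cKO (6 without MEF2AD cKO library 3), 143 to 233 in MEF2D (32 to 76 of them higher), 315 to 373 in MEF2AD, 224 to 264 for MEF2AD minus MEF2A, 3 to 16 for MEF2AD minus MEF2D, 1 to 12 for the sum and 86 to 128 for MEF2D minus MEF2A. By library totals these were 0 to 2, 248 to 320, 335 to 373, 257 to 292, 10 to 37, 1 to 13 and 137 to 208. Medians ranged from -0.0018 to 0.024 in MEF2A, -0.106 to -0.057 in MEF2D and -0.134 to -0.081 in MEF2AD, and RNA counts over 3 to 5, 27 to 62 and 55 to 74 genes. A median of 24 reads per site in the shallowest library limits the precision at single sites.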

Other observations

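Of the 381 genes near a site, 26 lay near more than 1, and the most for a gene was 3, as at Ank2, which encodes a spectrin-binding membrane adaptor. Inpp4b, which encodes a phosphatase of inositol lipids and lay near 2 sites, fell in RNA in MEF2AD cKO with a log2 fold change of -0.62 (limma adjusted p = 0.000921). Its site at chr8:81856178-81856492 had 1.26, 0.638 and 0.327 CPM in MEF2AD cKO against 3.19, 3.41 and 3.22 CPM in MEF2AD Control libraries (edgeR adjusted p = 3.98e-08), without overlap, while the other site, at the gene's start, was not called by TMM (edgeR adjusted p = 0.693) and was called lower by library totals (edgeR adjusted p = 0.003). Ank2 RNA was not called in any line. These genes were chosen after their values were seen.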
